A study of Mus musculus with 8 samples.

Results

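DNA replication and mitosis genes were followed as 40 named genes in the RNA of sorted spleen cells, out of 17384 genes in the deposited table and 12340 genes with enough reads to test. They were taken by gene symbol from a list of names whose rule uses no measured value, though the list was drawn up with earlier results of these data known. For description they were divided into 19 genes of the S phase and of the step from G1 into S, and 21 genes of G2 and mitosis. All 40 were found in the table and all 40 passed the filter on low counts, with between 98.9 and 5829 reads per gene and library.

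Cells that enter the cell cycle first switch on the genes that license and copy DNA, largely through E2F transcription factors, and later the genes that condense chromosomes, build the spindle and split the cell, largely through the MuvB complex with B-Myb and FoxM1. Both sets of transcripts are low in resting lymphocytes and rise with division, so their level in a tissue or sort is widely used as a reading of proliferation. In mice homozygous for Faslpr, a mutation that disables the death receptor Fas, T cells that carry the B cell isoform of CD45 (B220) and mostly lack CD4 and CD8 accumulate in spleen and lymph nodes. They are thought to derive from mature T cells that escaped removal through Fas.

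The samples were B220+CD3+ cells sorted from mouse spleen, with 4 libraries titled EAF2Faslpr from Eaf2-/-Faslpr mice and 4 titled Faslpr from Faslpr mice. Both groups carry Faslpr, so there was no group with intact Fas, and Eaf2, a factor of transcription elongation, is the only stated difference. The study asked about signalling in apoptosis. The labels state neither age, sex, strain background, treatment nor the kind of Eaf2 deletion. They also do not say how many animals stand behind each library, so the p-values speak for the spread among these libraries alone, which may be technical.

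The 8 libraries held 15563675 to 18640405 estimated reads. Eaf2 stood at 4.02 to 6.29 counts per 1000000 reads (CPM) in the EAF2Faslpr libraries and at 20.7 to 31.5 CPM in the Faslpr libraries (log2 fold change -2.43, SE 0.18, two-sided exact permutation p = 0.0286 over 70 orderings, n = 4 and 4, the smallest that this design allows). Across the table, 12.1% of the 12340 genes tested passed an adjusted p of 0.05 in edgeR's quasi-likelihood test, 7.14% higher and 4.96% lower in EAF2Faslpr. These were 1493 genes, and 990 without Faslpr replicate 2. The T cell genes were high in both groups, with Cd3e at a mean of 405 FPKM (fragments per kilobase of transcript, scaled to depth). B220 is an isoform and is not resolved by counts per gene. B cell genes were present in both groups and higher in EAF2Faslpr, and their values are given below beside the results they move with.

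The promoters of the members were searched for the elements through which the 2 classes are known to be controlled. RefSeq promoter windows (build GRCm38.p6, 250 bases before to 50 after the transcript start, 300 in all) were found for 33 of the 40 members, in 35 windows, and not for Mcm4, Gins2, Ccne2, Ccna2, Aurkb, Tpx2 and Foxm1. On both strands these were scanned for an E2F site (TTTCCCGC, TTTCGCGC, TTTGCCGC or TTTGGCGC), for the cell cycle genes homology region or CHR (TTTGAA or TTCGAA), through which MuvB binds, and for the CCAAT box bound by NF-Y. An E2F site was found in 7 of 16 S phase members (Mcm3, Mcm5, Mcm6, Mcm7, Cdc6, Cdt1 and Uhrf1) and in 1 of 17 mitotic members (Cdk1), against 2.26% of all 32851 windows. A CHR was found in 13 of 17 mitotic and 2 of 16 S phase members (Mcm2 and Mcm7), against 19.2% of all windows. All 13 of those mitotic members also held a CCAAT box, a combination present in 7.52% of all windows. A CCAAT box was found in 15 of 17 mitotic members, 9 of 16 S phase members and 37.4% of all windows.

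Of these windows 6 are shown, chosen after the matches were seen, to let the 2 kinds be compared. Each line gives the 200 bases before the transcript start in the direction of transcription, 5′ to 3′, with coordinates in GRCm38.p6. Capitals mark the matches to the motifs above, on either strand, and adjoining or overlapping matches form 1 run.
Mcm5 (chr8:75109309-75109508, plus strand): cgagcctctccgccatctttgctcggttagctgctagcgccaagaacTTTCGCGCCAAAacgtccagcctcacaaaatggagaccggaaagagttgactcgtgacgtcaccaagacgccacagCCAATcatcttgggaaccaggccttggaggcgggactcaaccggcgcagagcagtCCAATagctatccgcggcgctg
Mcm6 (chr1:128359706-128359905, minus strand): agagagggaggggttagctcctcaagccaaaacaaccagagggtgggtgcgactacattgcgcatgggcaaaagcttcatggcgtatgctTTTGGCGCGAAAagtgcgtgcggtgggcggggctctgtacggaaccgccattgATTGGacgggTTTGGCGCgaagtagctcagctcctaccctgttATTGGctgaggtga
Cdk1 (chr10:69352913-69353112, minus strand): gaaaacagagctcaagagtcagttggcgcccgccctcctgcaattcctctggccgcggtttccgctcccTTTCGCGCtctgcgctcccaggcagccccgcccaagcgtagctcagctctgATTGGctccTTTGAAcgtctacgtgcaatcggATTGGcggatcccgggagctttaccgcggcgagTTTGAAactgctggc
Mki67 (chr7:135716380-135716579, minus strand): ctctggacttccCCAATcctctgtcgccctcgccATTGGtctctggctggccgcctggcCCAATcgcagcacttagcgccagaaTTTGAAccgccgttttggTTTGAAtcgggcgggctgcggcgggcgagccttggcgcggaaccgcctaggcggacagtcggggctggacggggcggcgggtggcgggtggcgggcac
Cdc20 (chr4:118437344-118437543, minus strand): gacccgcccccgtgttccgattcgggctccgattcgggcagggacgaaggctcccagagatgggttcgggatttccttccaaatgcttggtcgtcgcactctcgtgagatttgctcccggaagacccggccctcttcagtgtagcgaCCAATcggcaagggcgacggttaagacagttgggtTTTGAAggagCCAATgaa
Ung (chr5:114130235-114130434, plus strand): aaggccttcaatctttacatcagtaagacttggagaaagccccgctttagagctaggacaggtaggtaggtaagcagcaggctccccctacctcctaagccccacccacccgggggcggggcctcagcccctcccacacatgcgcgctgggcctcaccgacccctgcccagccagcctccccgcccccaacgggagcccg

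Mcm5 and Mcm6, subunits of the replicative helicase, each hold an E2F site in both orientations as an overlapping pair, and Mcm6 has a further one nearer the start. Cdk1, the kinase that drives entry into mitosis, holds an E2F site together with CHR and CCAAT matches. Mki67 and Cdc20 hold CHR and CCAAT matches without an E2F match. In the Ung window no such letters were found. These matches are letters in a window and do not show that a factor was bound in these cells.

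Cycling genes were expressed in all 8 libraries, S phase members mostly above the typical gene and mitotic members close to it. By mean FPKM over all 8 libraries, 25 of the 40 members lay above the median of the genes tested, 11 in the top 25% and 3, all of the S phase class, in the top 10%. For the 40 together, the counts in the top 25% and the top 10% are near those shares. Above the median were 13 of 19 S phase and 12 of 21 mitotic members, and in the top 25% 9 and 2. The class median was 21.2 FPKM for S phase members and 12.9 FPKM for mitotic members, against 11.8 FPKM for all genes tested. In bulk RNA, fewer cells of a type and less RNA per cell cannot be told apart, so these levels do not give the share of dividing cells.

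Pcna, the sliding clamp of the replication fork, had the highest level of any member, 220 ± 18.8 FPKM in EAF2Faslpr and 203 ± 24.4 FPKM in Faslpr (SD, n = 4 each). It ranked above 97.9% of the genes tested. The 6 helicase subunits followed as a block, from Mcm6 at 84.2 FPKM and Mcm7 at 75.5 FPKM down to Mcm2 at 36.4 FPKM and Mcm5 at 33.7 FPKM. Rrm1 and Rrm2, the subunits of ribonucleotide reductase, stood at 33.7 and 31.2 FPKM. Uhrf1, which carries DNA methylation through replication, followed at 21.2 FPKM. At the low end of the class were Cdc6, the helicase loader, at 4.99 ± 1.14 FPKM in EAF2Faslpr and 4.82 ± 0.72 FPKM in Faslpr (SD, n = 4 each), and the transcription factor E2f1 at a mean of 5.20 FPKM.

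Among the mitotic members the highest was Top2a, the topoisomerase that untangles sister chromatids, at 46.0 ± 18.57 FPKM in EAF2Faslpr and 46.1 ± 8.56 FPKM in Faslpr (SD, n = 4 each). Ube2c, the ubiquitin-conjugating enzyme of the anaphase-promoting complex, followed at 33.4 FPKM, the proliferation marker Mki67 at 27.9 FPKM and cyclin B2 (Ccnb2) at 22.0 FPKM. The transcription factor Foxm1 stood at 10.03 FPKM and Cdk1 at 6.14 FPKM. The lowest were the kinetochore genes Cenpe at 3.95 FPKM and Cenpf at 2.91 ± 1.07 FPKM in EAF2Faslpr and 2.998 ± 0.62 FPKM in Faslpr (SD, n = 4 each). Some neighbours in this order, such as Rrm1 and Mcm5, differed in mean by less than their spread over libraries, while others, such as Pcna and Mcm6, were apart by more than it.

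**Figure D1:**
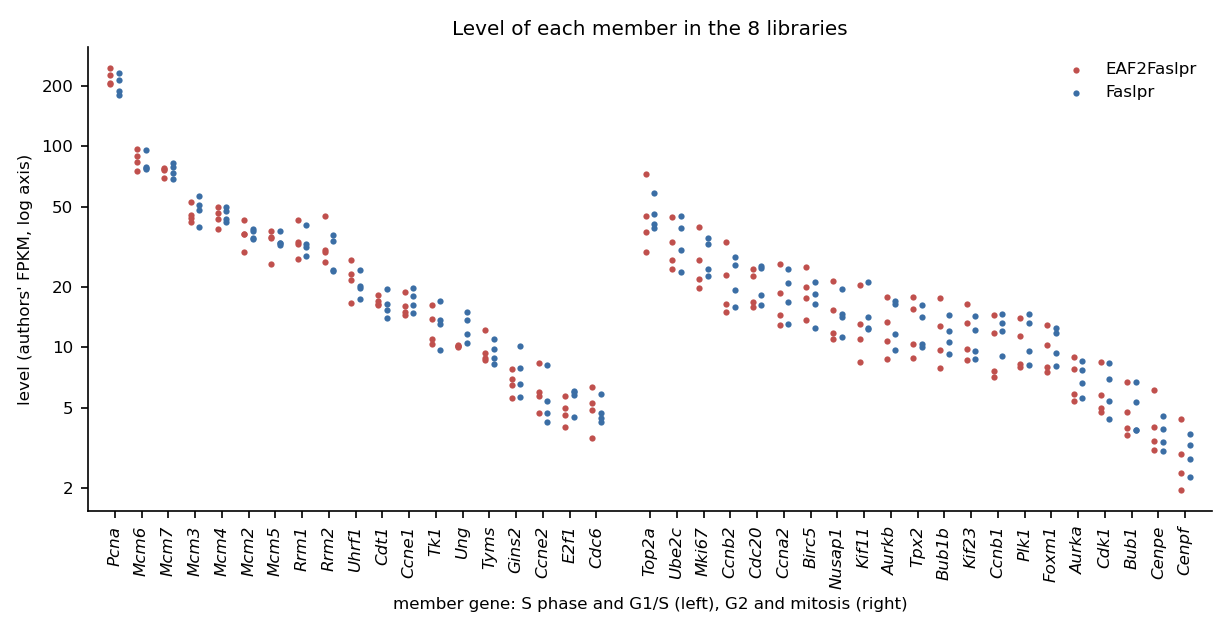
Level of each of the 40 members in FPKM (log axis), with 1 point per library, EAF2Faslpr in red and Faslpr in blue, S phase members on the left and mitotic members on the right, each class ordered by its mean. Pcna stands highest, at a mean of 211 FPKM, and the red and blue points of most genes overlap in range.

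The level of these genes did not pass the test between the groups for any member. In edgeR's quasi-likelihood test 0 of 19 S phase and 0 of 21 mitotic members had an adjusted p under 0.05, against 12.1% of all genes tested. At an unadjusted p under 0.05 it was 1 of 40 (Ung), against 24.9% of all genes. DESeq2 and limma-voom also called 0 of 40, against 1898 and 1483 of the 12340 genes tested. The median log2 fold change, EAF2Faslpr over Faslpr, was -0.010 for S phase members and -0.069 for mitotic members, beside -0.013 for all genes tested. Of the S phase members 9 had a log2 fold change above 0 and 10 below, and of the mitotic members 5 above and 16 below. The mitotic median was -0.29 without EAF2Faslpr replicate 1 and 0.084 without Faslpr replicate 1, so its direction rests on single libraries.

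A p-value above the threshold does not show that the levels were equal, and the intervals say how large a difference the data allow. The 95% interval of the fold change held 1 for 39 of 40 members, and stayed within 2-fold either way for all 40 and within 1.5-fold either way for 29. It was tighter for S phase members, with a median standard error of 0.12 on the log2 scale against 0.23 for mitotic members. The widest reach was 0.581-fold for Ccnb1 at the lower end and 1.55-fold for Ccne2 at the upper end. For 39 of the 40 members, all but Ung, the fold between the highest and the lowest library within each group was larger than the fold between the group means. A range over the libraries of a group is usually wider than a difference between group means, so this count adds little to the test.

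**Figure D2:**
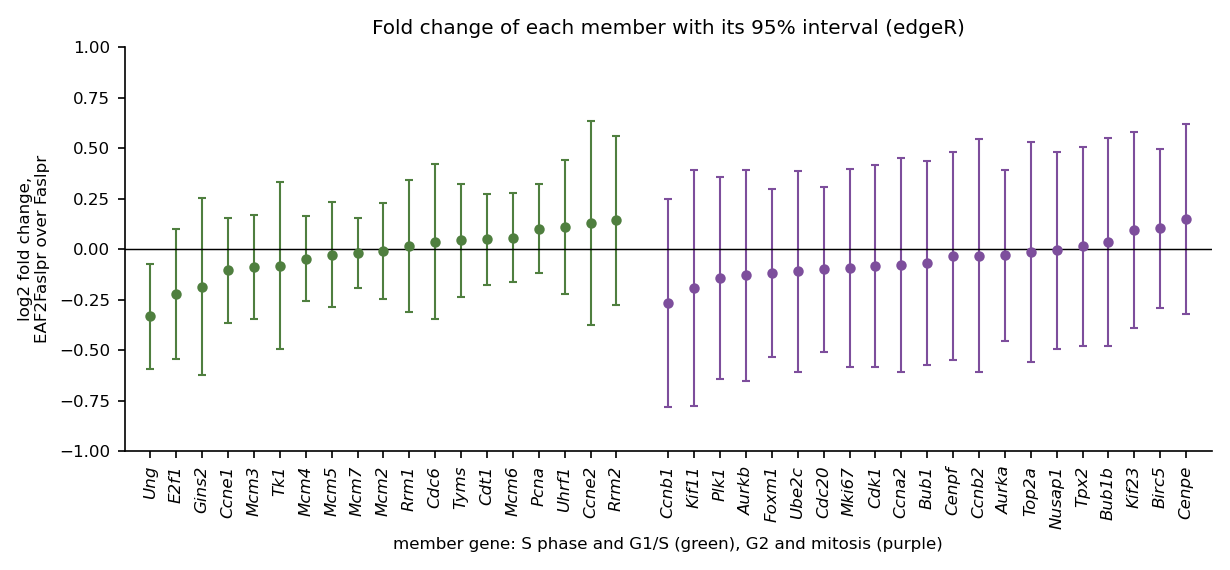
Log2 fold change of each member, EAF2Faslpr over Faslpr, with its 95% interval from edgeR, ordered within each class (S phase and G1/S green, G2 and mitosis purple). Only the interval of Ung, at the far left, leaves out 0, and the purple intervals are wider than most green ones.

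Among the replication genes, Pcna stood at 296, 249, 243 and 273 CPM in EAF2Faslpr replicates 1 to 4 and at 264, 217, 227 and 282 CPM in Faslpr replicates 1 to 4. Its log2 fold change was 0.10 (SE 0.10, adjusted p = 0.595). The groups overlapped over most of their range. Mcm5 was at 129, 118, 86.9 and 119 CPM in EAF2Faslpr and at 129.6, 111, 109 and 112 CPM in Faslpr, with a log2 fold change of -0.027 (SE 0.12, adjusted p = 0.914). Here EAF2Faslpr replicate 3 was the low library and Faslpr replicate 1 stood above the other 3 of its group. Cdc6 was at 28.8, 24.0, 15.9 and 22.3 CPM in EAF2Faslpr and at 27.2, 20.4, 19.4 and 21.7 CPM in Faslpr, highest in the libraries numbered 1 and lowest in those numbered 3 in both groups. Its log2 fold change was 0.037 (SE 0.17, adjusted p = 0.922).

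E2f1, an activating E2F factor of the step into S phase, was at 15.2, 12.3, 10.6 and 13.3 CPM in EAF2Faslpr and at 16.5, 15.4, 11.9 and 16.1 CPM in Faslpr. With a log2 fold change of -0.22 (SE 0.14, adjusted p = 0.389), it had the next lowest estimate of its class after Ung. Its highest EAF2Faslpr libraries reached into the Faslpr range. The S phase members with an E2F match in their window lay on both sides of 0. Their log2 fold changes were 0.049 for Cdt1, 0.057 for Mcm6, 0.037 for Cdc6 and 0.11 for Uhrf1. Those of Mcm3, Mcm5 and Mcm7 were -0.090, -0.027 and -0.020. Each was smaller in size than its SE, and none of them passed the test.

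Ung, the uracil-DNA glycosylase that removes uracil from DNA and that B cells also use in antibody diversification, is described here because of its values. It was at 18.56, 18.4, 18.4 and 18.8 CPM in EAF2Faslpr and at 21.7, 25.0, 19.1 and 27.6 CPM in Faslpr. Every EAF2Faslpr library was below every Faslpr library, the only such case among the 40 members, while 17.7% of all genes tested had groups that did not overlap. The log2 fold change was -0.33 (SE 0.12, unadjusted p = 0.0167, adjusted p = 0.099), which did not pass. Without Faslpr replicate 3, the lowest of its group, the log2 fold change was -0.42 and passed at an adjusted p of 0.0284.

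Among the mitotic genes, Mki67 stood at 373, 256, 182 and 206 CPM in EAF2Faslpr replicates 1 to 4 and at 334, 229.8, 214 and 307 CPM in Faslpr replicates 1 to 4. The log2 fold change was -0.093 (SE 0.22, adjusted p = 0.844). Within EAF2Faslpr the range was 2.05-fold. Top2a was at 374, 231, 151 and 193 CPM in EAF2Faslpr and at 306, 211, 203 and 239 CPM in Faslpr, a log2 fold change of -0.016 (SE 0.24, adjusted p = 0.978). Its EAF2Faslpr libraries enclosed the whole Faslpr range and spanned 2.47-fold, the widest range of any member in either group. Cenpf was at 46.4, 31.8, 21.2 and 25.8 CPM in EAF2Faslpr and at 40.0, 29.4, 23.9 and 34.7 CPM in Faslpr, with the same order of libraries as Mki67 in both groups.

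Cdk1 was at 36.4, 24.9, 21.1 and 20.4 CPM in EAF2Faslpr and at 30.3, 23.4, 19.0 and 35.99 CPM in Faslpr. Its log2 fold change was -0.083 (SE 0.23, adjusted p = 0.864). The libraries numbered 4 stood at opposite ends, lowest in EAF2Faslpr and highest in Faslpr. Foxm1, which drives the late mitotic genes, was at 55.5, 44.4, 32.1 and 34.5 CPM in EAF2Faslpr and at 51.3, 40.5, 34.9 and 53.6 CPM in Faslpr, a log2 fold change of -0.12 (SE 0.19, adjusted p = 0.761). It again had its high library at replicate 1 in EAF2Faslpr and at replicates 1 and 4 in Faslpr. The remaining mitotic members, the cyclins Ccna2, Ccnb1 and Ccnb2, the anaphase genes Cdc20 and Ube2c, the kinases Aurka, Aurkb, Plk1, Bub1 and Bub1b, the survivin gene Birc5, the spindle genes Kif11, Kif23, Nusap1 and Tpx2, and the kinetochore motor Cenpe, had log2 fold changes from -0.27 (Ccnb1) to 0.15 (Cenpe). The remaining S phase members, the helicase genes Mcm2, Mcm3, Mcm4, Mcm6 and Mcm7, the licensing factor Cdt1, the helicase partner Gins2, the nucleotide enzymes Rrm1, Rrm2, Tyms and Tk1, Uhrf1 and the E cyclins Ccne1 and Ccne2, lay from -0.19 (Gins2) to 0.14 (Rrm2).

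What varied was the level between replicates, and the members varied together. In EAF2Faslpr, replicate 1 held the highest value of the group for 38 of 40 members, 17 of 19 of S phase and 21 of 21 mitotic, while it was the highest for 28.7% of all genes tested. Replicate 3 was below the group mean for 40 of 40 members, while 52.8% of all genes tested were above it there. It was lowest for 32 members, against 28.6% of all genes. In Faslpr, replicate 1 was highest for 27 members, against 24.7% of all genes. Replicate 4 was highest for the other 13, a share near its 33.4% of all genes. Replicate 3 was lowest for 32, against 25.1% of all genes. Replicate 1 was highest in both groups at once for 26 of 40 members, against 10.8% of all genes. With counts of 38 and 27 of 40 in the groups, this overlap was nearly fixed and adds little to them. The replicate numbers are names and were not found to pair the libraries, so the same number at the top in both groups is a description. Members of 1 library share its cells and its preparation, so these counts are not independent observations.

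The mitotic members moved further than the S phase members. The median over genes of the within-group SD on the log2(CPM + 0.5) scale was 0.39 for mitotic members and 0.19 for S phase members, beside 0.16 for all genes tested and 0.14 for those with a mean of at least 10 CPM. The mitotic SDs ran from 0.29 (Birc5) to 0.46 (Kif11), and the S phase SDs from 0.11 (Mcm7) to 0.37 (Ccne2). Of the 19 S phase members 16 lay below the lowest mitotic SD, and the 3 above it were Ccne2, which encodes a cyclin of the G1 to S step, Rrm2 and Tk1, the thymidine kinase. The typical range from the lowest to the highest library was 1.97-fold for mitotic and 1.41-fold for S phase members in EAF2Faslpr, against 1.24-fold for all genes. In Faslpr it was 1.67-fold for mitotic and 1.38-fold for S phase members, against 1.31-fold for all genes.

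In EAF2Faslpr replicates 1 to 4 the median deviation from the group mean, in log2 units, was 0.54, 0.11, -0.40 and -0.24 for mitotic members and 0.23, -0.037, -0.24 and 0.022 for S phase members. In Faslpr replicates 1 to 4 it was 0.34, -0.16, -0.35 and 0.15 for mitotic and 0.14, -0.050, -0.18 and 0.082 for S phase members. The classes moved in the same direction in 6 of the 8 libraries by their medians. The exceptions were EAF2Faslpr replicates 2 and 4, where the S phase median lay near 0. In EAF2Faslpr replicate 4 the classes lay on opposite sides, with 12 of 19 S phase members above their group mean and 21 of 21 mitotic members below it.

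**Figure D3:**
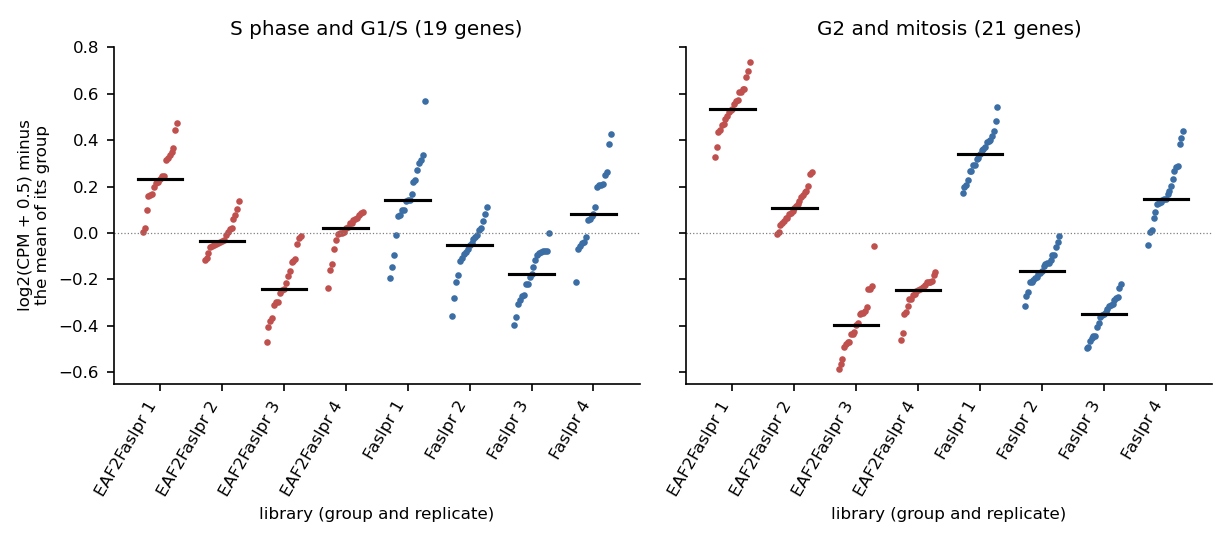
Deviation of each member from the mean of its own group, as log2(CPM + 0.5), in each of the 8 libraries (EAF2Faslpr red, Faslpr blue), for 19 S phase members on the left and 21 mitotic members on the right, with 1 point per gene sorted by value and a black bar at the median. The mitotic points of a library lie together and swing from a median of 0.54 to -0.40, while the S phase points swing less.

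Summed over the class, mitotic members gave 1652, 1159.9, 799.8 and 913 CPM in EAF2Faslpr replicates 1 to 4 and 1477, 1023, 921 and 1282 CPM in Faslpr replicates 1 to 4. S phase members gave 1971, 1678, 1474 and 1739 CPM in EAF2Faslpr and 1895, 1594, 1525 and 1782 CPM in Faslpr. The highest and the lowest sums of both classes belonged to EAF2Faslpr, and the Faslpr libraries lay between them. The group means were 1131 ± 379 and 1176 ± 252 CPM for the mitotic sum and 1715 ± 205 and 1699 ± 169.9 CPM for the S phase sum (EAF2Faslpr and Faslpr, SD, n = 4 each), so both differences were well inside the spread. The ratio of the S phase to the mitotic sum was 1.19, 1.45, 1.84 and 1.90 in EAF2Faslpr and 1.28, 1.56, 1.66 and 1.39 in Faslpr, lowest in each group in the library with the highest sums.

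**Figure D4:**
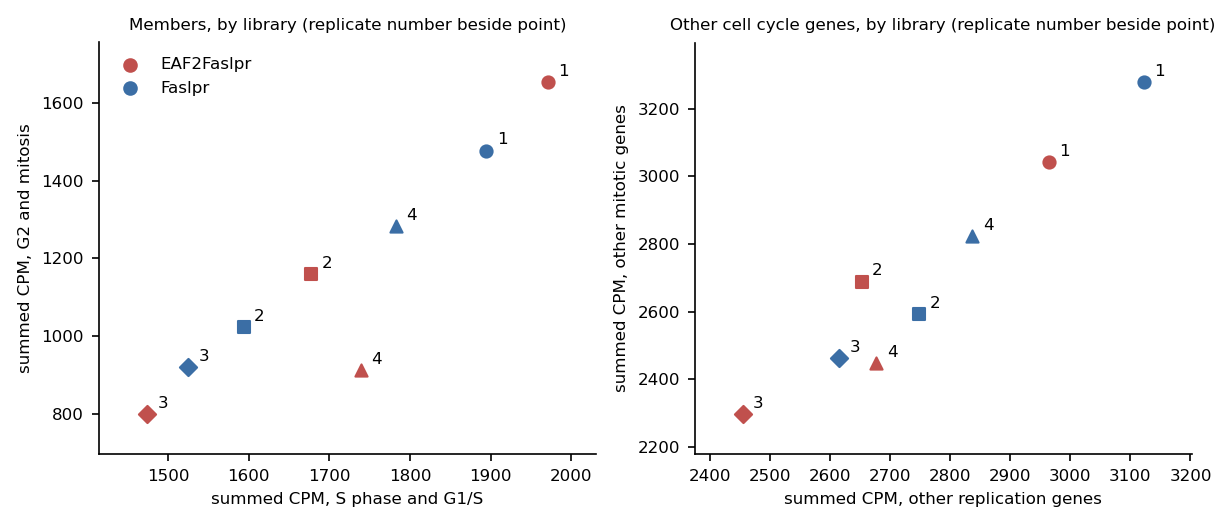
Summed CPM of mitotic against S phase members (left) and of other mitotic against other replication genes (right), with 1 point per library, the replicate number beside it, EAF2Faslpr in red and Faslpr in blue. Libraries to the right are mostly also high up, and in the left panel EAF2Faslpr replicate 4 stands off with a mitotic sum of 913 CPM at an S phase sum of 1739 CPM.

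Genes of other cell types moved across the same libraries. All 10 B cell genes rose in EAF2Faslpr, against 7.14% of all genes tested, with a log2 fold change of 2.18 at the median. They summed to 313, 322, 613 and 331 CPM in EAF2Faslpr replicates 1 to 4 and to 60.9, 94.1, 128 and 83.6 CPM in Faslpr replicates 1 to 4. In each group the B cell sum was highest in replicate 3, where the members were mostly lowest, and lowest in replicate 1, where they were mostly highest. The most abundant of them, Cd79a, a chain of the B cell receptor complex, reached 106 FPKM in EAF2Faslpr replicate 3 and 8.46 to 52.4 FPKM elsewhere. The 5 tested neutrophil genes of 10, whose lowest adjusted p was 0.0659 in edgeR's test, summed to 109 CPM in EAF2Faslpr replicate 3. In the others they summed to 12.5 to 19.8 CPM, most of it Cxcr2, which was at 9.83 to 14.3 CPM over all 8 libraries. S100a8, the most abundant by FPKM, was at 73.8 FPKM in EAF2Faslpr replicate 3 and at 0.99 to 4.65 FPKM elsewhere. The part of these cells in the levels of the members was not tested. Without EAF2Faslpr replicate 3 the class medians were 0.061 for S phase and 0.051 for mitotic members.

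T cell genes, 1 of 7 higher (Cd2), summed to 2714 to 2827 CPM in EAF2Faslpr and 2599.6 to 3073 CPM in Faslpr. This count and those of the marker lists below stand beside 7.14% of all genes tested higher and 4.96% lower in EAF2Faslpr. Of the germinal centre B cell genes 3 of 5 were tested, with a lowest adjusted p of 0.118 in edgeR's test and sums of 33.8 to 42.6 and 36.9 to 39.7 CPM. Antibody-secreting cell genes, 1 of 6 lower (Xbp1), summed to 687 to 846 and 857 to 975 CPM. Erythroid precursor genes, 1 of 5 higher (Car2), summed to 112 to 132 and 90.2 to 103 CPM. Tfrc, at 62.0 to 102 CPM, and Car2, at 13.0 to 42.4 CPM, made up most of this sum. The haemoglobin genes Hba-a1, Hbb-bt and Hbb-bs had log2 fold changes below 0 (-0.37, -1.09 and -0.18) and did not pass. Alas2, Klf1 and Slc4a1, which mark erythroid precursors, were below the filter on low counts. Macrophage genes, 1 of 8 higher (Lyz2), summed to 40.5 to 119 and 40.9 to 51.0 CPM. The call of Lyz2 leaned on EAF2Faslpr replicate 3, at 75.1 CPM against 6.36 to 10.5 CPM in the other 3 EAF2Faslpr libraries. It passed in 5 of 8 fits that left out 1 library, with log2 fold changes of 1.37 to 3.41, and not in limma-voom (adjusted p = 0.157). The myeloid precursor genes Elane, Mpo, Prtn3 and Ctsg and the natural killer cell genes Ncr1, Klrb1c and Klra8 were also below the filter. The tested natural killer cell genes, Eomes and Gzmb, summed to 1454 to 1734 CPM in EAF2Faslpr and 1731 to 2027 CPM in Faslpr. Their lowest adjusted p was 0.119 in edgeR's test. Nearly all of this sum was Eomes, at 1417 to 1978 CPM, beside 34.1 to 104 CPM for Gzmb, so it does not give a level of natural killer cells.

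Other genes of replication and mitosis were read from the same fit. Over all 12340 genes tested, 12.1% passed edgeR's test and 24.9% were under 0.05 unadjusted, while DESeq2 called 1898 and limma-voom 1483. Of 47 other replication genes (origin recognition, polymerases, clamp loader and others) 0 passed edgeR's test in either direction, 4 were under 0.05 unadjusted, DESeq2 called 2 (Pole and Usp1) and limma-voom 0, and the median log2 fold change was -0.061, with 10 genes above 0 and 37 below. Of 61 other mitotic genes 0 passed edgeR's test, 4 were under 0.05 unadjusted, DESeq2 called 1 (Melk) and limma-voom 0, with a median of -0.060 and 18 genes above 0 and 43 below. EAF2Faslpr replicate 1 was the highest of its group for 55 of the 61 mitotic and 35 of the 47 replication genes, against 28.7% of all genes. Replicate 1 was highest in both groups for 41 of 61 mitotic genes (67.2%) and 18 of 47 replication genes (38.3%), against 10.8% of all genes. The mitotic overlap was largely set by the counts within each group, 55 and 42 of 61. The within-group SDs of these lists again differed by class, with medians of 0.33 for mitotic and 0.17 for replication genes.

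Of 16 drivers of cell cycle entry 1 fell and 0 rose. Among all genes tested 4.96% were lower and 7.14% higher, so these counts are near the background. The 1 that fell was Ccnd2, which encodes cyclin D2 and acts with Cdk4 and Cdk6. It was at 695, 760.4, 640.4 and 779.9 CPM in EAF2Faslpr replicates 1 to 4 and at 1063, 948, 954 and 854 CPM in Faslpr replicates 1 to 4. All 4 EAF2Faslpr libraries were lower than all 4 Faslpr libraries. Its log2 fold change was -0.41 (SE 0.09, adjusted p = 0.0147), and it passed in 8 of 8 fits that left out 1 library. The cyclin Ccnd3 and its partner kinases Cdk4 and Cdk6 gave log2 fold changes of -0.054 (SE 0.13), 0.0010 (SE 0.09) and -0.023 (SE 0.14), and Myc, a transcription factor of cell growth, gave -0.17 (SE 0.11). None of these 4 passed.

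Of 27 restraints on the cell cycle 2 rose and 1 fell, a share near the 12.1% of all genes tested that passed. Beside inhibitors the list holds the MuvB subunits Lin9, Lin37, Lin52, Lin54 and Rbbp4. That complex also serves to switch mitotic genes on, so the list is not a reading of inhibitors alone. Tob1, an antiproliferative factor of quiescent T cells, was at 55.0, 62.7, 64.3 and 75.01 CPM in EAF2Faslpr and at 31.8, 29.5, 36.4 and 32.3 CPM in Faslpr (log2 fold change 0.98, SE 0.10, adjusted p = 0.000311). Btg1, a member of the same family of antiproliferative genes, was at 871, 742, 953 and 898 CPM in EAF2Faslpr and at 525, 503.9, 586 and 551 CPM in Faslpr (log2 fold change 0.68, SE 0.09, adjusted p = 0.00105). In both genes every EAF2Faslpr library exceeded every Faslpr library.

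Cdkn2a, which encodes the inhibitor p16 and the p53 activator p19Arf, had few reads, at 1.74, 1.42, 1.38 and 1.66 CPM in EAF2Faslpr and at 3.15, 5.005, 3.74 and 4.63 CPM in Faslpr (log2 fold change -1.41, SE 0.22, adjusted p = 0.00229). Tob1, Btg1 and Cdkn2a passed in 8 of 8 fits that left out 1 library. The kinase inhibitors Cdkn1a, Cdkn1b and Cdkn2d had log2 fold changes of -0.072 (SE 0.36), -0.15 (SE 0.12) and -0.0031 (SE 0.10) and did not pass, though Cdkn1b passed without Faslpr replicate 4 at an adjusted p of 0.0357. The list as a whole had a median of -0.088. B cell genes were higher in the same EAF2Faslpr libraries, and their part in these regulators was not tested.

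**Figure D5:**
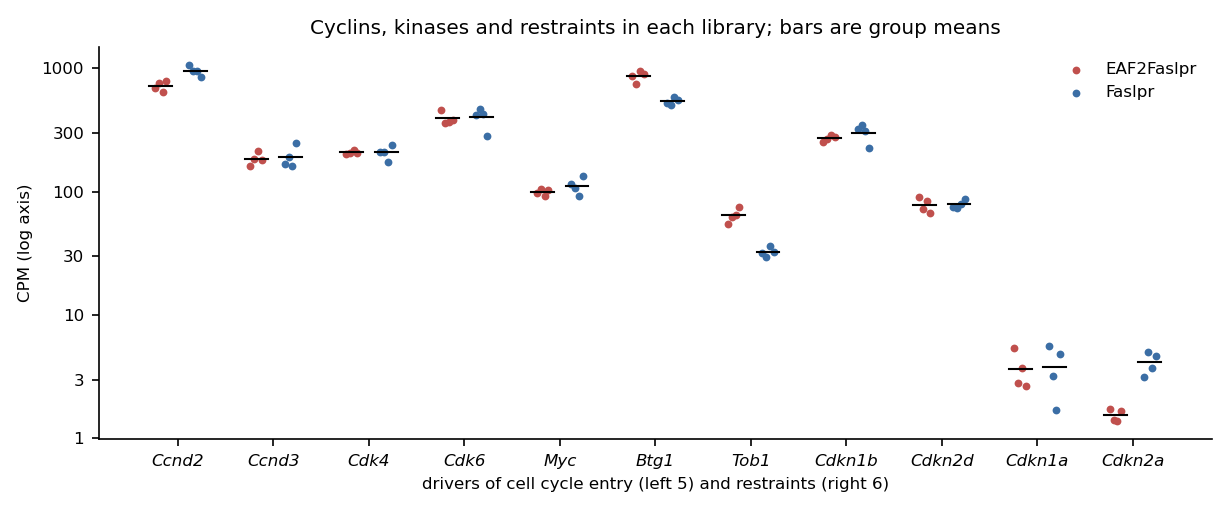
CPM (log axis) of 5 drivers of cell cycle entry and 6 restraints in each library (EAF2Faslpr red, Faslpr blue), with a black bar at each group mean. The points of the 2 groups separate for Ccnd2, Btg1, Tob1 and Cdkn2a and overlap for the other 7 genes.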

How the data were processed

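RNA was measured in 8 libraries, 4 in each of 2 groups, grouped and numbered by their titles. RNA was isolated with TRIzol and made into mRNA libraries for DNBSEQ, per the labels' protocols. The deposited table gives the authors' estimated counts per gene, with no depth scaling, and the FPKM calculated by the authors. RSEM 1.3.1, HISAT2 2.2.1, Bowtie2 2.4.5 and the build GRCm39 are listed, with roles unstated, per the submitters' processing notes. No source used here names the annotation, any filter or whether strand was counted. RSEM shares reads between similar genes by estimate, and 36.8% of the estimated counts were whole within 0.001. A further 16 columns of per-sample values that match no sample were not used.

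Estimated counts were rounded and fitted over all genes with edgeR 4.0.16 (R 4.3.3; filterByExpr, TMM scaling, quasi-likelihood test, Benjamini-Hochberg adjustment over the 12340 genes tested, threshold 0.05). The procedure was tested on simulated data. CPM values are TMM-scaled. Deviations use log2(CPM + 0.5). FPKM served only to compare levels between genes. A count of 3 reads corresponds to 0.161 to 0.193 CPM, far below the members. Replicate libraries differed beyond sampling noise (chi-square per degree of freedom 9.54 to 37.5). Alternatives were a replicate block, RLE scaling, no filter, DESeq2 1.42.0, limma-voom (limma 3.58.1), each library left out, and both libraries numbered 4 left out. The members, the 4 companion lists with 151 genes and the 8 marker lists were chosen with earlier results of these data known, so no list was tested as a set. Genes given in every library were Mki67, Top2a, Pcna, Mcm5, Cdk1, E2f1 and Foxm1, any member that passed, and the highest and lowest FPKM of each class. Companions named were up to 3 that passed per list and direction, and Myc, Ccnd2, Ccnd3, Cdk4, Cdk6, Cdkn1a, Cdkn1b and Cdkn2d. Ung and the other extremes of fold change, and companions called in an alternative run but not in the main edgeR fit, were named after their values were seen. Promoter sequences and names come from RefSeq tables of build GRCm38.p6, since no genome of the files' build was used. The promoter windows were matched to the members by gene identifier. Some marker genes are not reported here.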

Additional observations from a re-analysis of the deposited data

Results flagged for a closer look

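Values of single libraries were compared with the rest of their group for the named genes and the list sums, 146 groups of 4 in all. In 8 of them 1 library stood apart, judged by its gap to the nearest of the others against the group's range (Dixon's criterion). Chance alone gives about 1 in 20 such groups. Both cases among the members were helicase subunits in Faslpr replicate 1. Mcm5 was at 129.6 CPM there and at 109 to 112 CPM in the other 3 Faslpr libraries. Mcm6 was at 297 CPM there and at 238 to 244 CPM in the others.

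The other cases were markers of other cell types in the libraries numbered 3. In EAF2Faslpr replicate 3 the B cell sum was 613 CPM, against 313 to 331 CPM in the rest of the group, and Cd79a was 99.6 CPM, against 41.9 to 50.1 CPM. The neutrophil sum was 109 CPM there, against 12.9 to 19.8 CPM, and S100a8 was 24.9 CPM, against 0.655 to 1.60 CPM. Lyz2 was 75.1 CPM there, against 6.36 to 10.5 CPM. In Faslpr replicate 3 Lyz2 was 5.94 CPM, against 2.06 to 2.69 CPM.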

How the results depend on the processing

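No mitotic member was called by edgeR under any alternative run, and the only S phase member called was Ung, without Faslpr replicate 3, so the S phase count ran from 0 to 1 when libraries were left out. The replicate block, an alternative since same-numbered libraries deviated together weakly or not at all (r over 12340 genes 0.16, 0.18, 0.056 and -0.061 for numbers 1 to 4, not every library closest to its own number), called 1425 genes and 0 members, 2 other replication genes and 2 other mitotic genes. DESeq2 called 1898 genes, among them 2 other replication genes, 1 other mitotic gene and 5 restraints. Leaving out 1 library gave 990 to 1599 genes changed, 0 to 2 other replication genes and 0 to 1 other mitotic genes. The class medians ran from -0.096 to 0.061 (S phase) and from -0.29 to 0.084 (mitotic).

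Log2 fold changes near 0 changed sign. Without both libraries numbered 4 they were 0.061 for Mki67, 0.070 for Top2a, 0.18 for Cdk1, 0.056 for Foxm1, 0.090 for Cenpf, 0.096 for Ccnd3, 0.18 for Cdkn1a and 0.12 for Cdkn2d. Cdk4 was -0.012 without a filter and Cdkn2d 5.9e-05 with RLE scaling. With 1 library left out the ranges were -0.34 to 0.036 for Mki67, -0.32 to 0.15 for Top2a, -0.094 to 0.079 for Mcm5, -0.30 to 0.085 for Cdk1, -0.096 to 0.17 for Cdc6, -0.043 to 0.26 for Rrm2, -0.28 to 0.11 for Cenpf, -0.10 to 0.27 for Cenpe, -0.13 to 0.089 for Ccnd3, -0.075 to 0.073 for Cdk4, -0.15 to 0.062 for Cdk6, -0.32 to 0.16 for Cdkn1a and -0.082 to 0.065 for Cdkn2d. The cause was not tested. Each member had at least 98.9 reads in every library, and there were 4 libraries per group.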
